A study of Mus musculus with 14 samples.

Results

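Of the 10 liver tumours in this study, 3 carried more glutamine synthetase (Glul) RNA than any normal liver, and they are described here against the other 7 tumours. All 14 samples of the study, 4 of normal liver and 10 of tumour, came from male mice of the inbred strain C3HeB/FeJ, which develops liver tumours spontaneously, with an age of 18 months in the labels. Mice were examined for tumours at 10 months, and the labels give 6 cycles of intraperitoneal injection, each on 5 days in every 28. The tumours are labelled Grow (1 to 6) or Regress (1 to 4), with no definition of either word in the labels. Phosphate citrate buffer was the injection of the 4 mice with normal liver.

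Glul was scaled to CPM, its count in 1000000 counts of a library (by column total). It stood at 316, 216, 391 and 537 CPM in Normal 1 to 4. The tumours above 537 CPM were Grow 3 with 12643 CPM, Grow 4 with 11649 CPM and Regress 4 with 1807 CPM. In the other 7 tumours Glul ranged from 18.8 CPM in Regress 2 to 196 CPM in Regress 1, which lay nearest to the limit from below, while Regress 4 lay nearest from above. These values chose the members and no test was made on them. A limit of 2 times the highest normal liver, or a scaling by the TMM method (trimmed mean of M values), moved 0 tumours from one set to the other.

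Among the Glul-high tumours, Grow 3 and Grow 4 received SAHA (a histone deacetylase inhibitor also named suberoylanilide hydroxamic acid, 85 mg/kg) with TMZ (temozolomide, a DNA-alkylating drug, 22 mg/kg), and Regress 4 received the solvent DMSO. The other 7 tumours were Grow 1 and Grow 5 (DMSO), Grow 2 (SAHA with TMZ at the same doses), Grow 6 (SAHA, 100 mg/kg), Regress 1 and Regress 3 (TMZ, 31 mg/kg) and Regress 2 (buffer). Each treatment of the Glul-high tumours was also present among the others. Spontaneous tumours are not defined by an engineered mutation, and no mutation data were analysed here.

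Grow 3 and Grow 4 were the most alike of all library pairs. Their log2(CPM + 1) values correlated across genes with r = 0.986 and differed by a median of 0.155, against r = 0.964 for the next pair, and the chi-square per degree of freedom of their counts was 18.9, so they differed by more than sampling noise. They are near copies and were counted as 1 sample, which leaves n = 2 Glul-high tumours, n = 7 others and n = 4 normal livers. Library totals ranged from 4707063 to 13394301 estimated counts. Normal 4 and Regress 2 share a sample code in the labels, and the labels do not say that replicates are separate animals, so the p-values given cover only the scatter among these samples, which may be technical. Regress 1 stood close to normal liver, with the tumour marker alpha-fetoprotein (Afp) at 0.591 CPM against 23.2 to 425 CPM in the other 9 tumours. Normal 2, labelled male like the others, had low levels of male-type genes, with 5.07 CPM of the cytochrome Cyp4a12a against at least 237 CPM in the other normal livers. Without Normal 2 the main comparison called 50 genes, without Regress 1 it called 59, and without both Normal 4 and Regress 2 it called 28.

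Beta-catenin is the effector of canonical Wnt signalling. When its destruction complex is inactive, it enters the nucleus and activates genes with TCF/LEF transcription factors, among them feedback inhibitors of the pathway itself. In healthy liver this programme is active in the few hepatocytes around the central vein, which make glutamine from ammonium through glutamine synthetase, while periportal hepatocytes run the urea cycle, break down amino acids and make glucose. Tumours with activated beta-catenin are known for strong glutamine synthetase expression.

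In what follows CPM is scaled by TMM, fold changes are log2 with a standard error (SE), and adjusted p-values are those of edgeR's quasi-likelihood test with Benjamini-Hochberg adjustment over all tested genes, called under 0.05. Of 13021 genes tested besides Glul, 59 were called between the Glul-high and the other tumours (0.453%). Of these, 57 were higher in the Glul-high tumours (0.438% of the genes tested) and 2 were lower (0.0154%). DESeq2 called 105 higher and 63 lower. Of the 59 called genes, 30 passed the filter on low counts only through the Glul-high libraries and had to differ. The median log2 fold change over all genes tested was -0.02. Without regard to a test, all 3 Glul-high libraries lay above all 7 others for 315 genes (2.42%) and below them for 228 genes (1.75%).

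**Figure D1:**
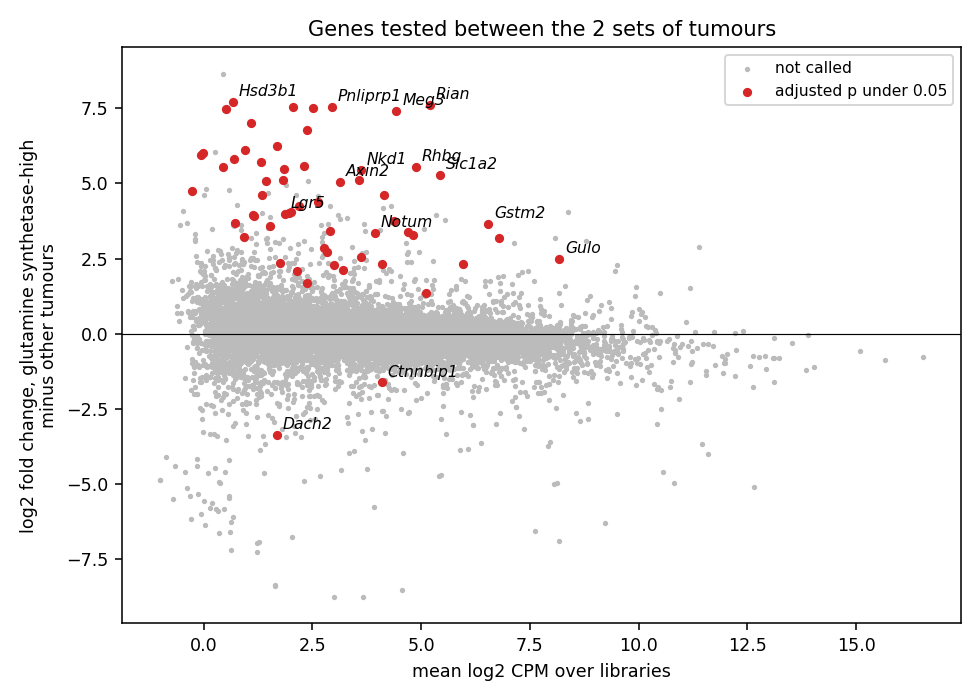
Log2 fold change (vertical axis, Glul-high minus other tumours) against mean log2 CPM (horizontal axis) for the tested genes other than Glul, with called genes in red. Of the 59 called genes 57 lie above the zero line, and Ctnnbip1 and Dach2 lie below it.

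The feedback targets of the Wnt pathway had the highest median fold change of the gene lists. Of 17 such genes on the list, 14 passed the filter on low counts, 10 of them also without the Glul-high libraries. Of the 14, 9 rose in the Glul-high tumours (0.438% of all genes did): Nkd1, Axin2, Apcdd1, Sp5, Lgr5, Notum, Tnfrsf19, Rnf43 and Tcf7. In 13 of the 17, every Glul-high library lay above every other tumour, among them Wif1 and Lef1, which were not tested. Of the 14 tested, 11 did so (2.42% of all genes tested did). The median log2 fold change of the tested members was 2.95, against -0.02 over all genes. Sp5 and Apcdd1, 2 of the 9, passed the filter only through the Glul-high libraries and had to differ. The median includes the members that passed in this way.

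The promoters of 4 called genes are shown because they hold a short TCF/LEF-type motif. One motif searched was CTTTGAA, with TTCAAAG as its reverse complement. The other was CTTTGAT, with ATCAAAG as its reverse complement, so that both strands are covered. Each window runs from 250 bases before the RefSeq start to 50 bases from the start on (GRCm38.p6), in the direction of the gene, with the motif in capitals. The window of Sp5 is chr2:70474673-70474972, plus strand. That of Tnfrsf19 is chr14:61037938-61038237, minus strand, at one of its annotated starts. That of Slc1a2 is chr2:102706188-102706487, plus strand. That of Gstm3 is chr3:107969125-107969424, minus strand.
Sp5: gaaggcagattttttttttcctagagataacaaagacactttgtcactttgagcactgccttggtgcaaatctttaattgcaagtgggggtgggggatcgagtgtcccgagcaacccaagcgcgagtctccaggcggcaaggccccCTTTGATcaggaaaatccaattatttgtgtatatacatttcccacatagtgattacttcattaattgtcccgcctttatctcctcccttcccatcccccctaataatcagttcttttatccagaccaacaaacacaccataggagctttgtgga
Tnfrsf19: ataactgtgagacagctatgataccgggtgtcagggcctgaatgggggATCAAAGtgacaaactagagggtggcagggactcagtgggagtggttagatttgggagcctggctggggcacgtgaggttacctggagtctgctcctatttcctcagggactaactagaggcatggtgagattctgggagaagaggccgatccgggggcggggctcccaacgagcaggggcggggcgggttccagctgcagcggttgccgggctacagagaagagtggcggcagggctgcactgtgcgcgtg
Slc1a2: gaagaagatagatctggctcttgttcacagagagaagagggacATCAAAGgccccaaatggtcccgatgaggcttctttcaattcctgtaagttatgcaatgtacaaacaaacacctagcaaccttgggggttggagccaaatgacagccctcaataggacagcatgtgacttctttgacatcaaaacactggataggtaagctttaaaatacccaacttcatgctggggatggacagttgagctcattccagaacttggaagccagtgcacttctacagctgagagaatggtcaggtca
Gstm3: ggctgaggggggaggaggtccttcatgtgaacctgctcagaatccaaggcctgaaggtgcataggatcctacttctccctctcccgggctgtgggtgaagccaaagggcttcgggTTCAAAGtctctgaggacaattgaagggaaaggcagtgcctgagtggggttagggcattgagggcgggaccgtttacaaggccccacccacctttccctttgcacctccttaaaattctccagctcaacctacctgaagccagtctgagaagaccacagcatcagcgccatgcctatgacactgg
The motif began 104 bases before the start in Sp5, 202 in Tnfrsf19, 207 in Slc1a2 and 135 in Gstm3. Of the 57 genes that rose, 38 had a promoter in the table and 5 of those held a motif (13.2%), the 4 shown and Col6a2. The share was 9.88% over all 27025 genes of the table and 7.23% over the 9632 tested genes in it. A match describes these letters only.

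Axin2 is a scaffold of the destruction complex and a standard readout of the pathway. It measured 61.4 CPM in Grow 3, 57.0 CPM in Grow 4 and 25.8 CPM in Regress 4. In the other tumours the lowest, median and highest values were 0.554, 0.768 and 2.95 CPM. All 3 Glul-high libraries were above all others and above the normal livers, which had 5.27, 1.40, 4.93 and 4.67 CPM. Means were 42.5 ± 23.6 CPM (SD, n = 2, the pair as 1) and 1.30 ± 1.03 CPM (SD, n = 7). The log2 fold change was 5.04 (SE 0.57, adjusted p = 0.000926) against the other tumours and 3.38 (adjusted p = 0.0385) against normal liver.

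Nkd1, an inhibitor that binds Dishevelled, had 102 and 99.3 CPM in Grow 3 and Grow 4 and 28.4 CPM in Regress 4. The other tumours had 0.369 at the lowest, 1.28 at the median and 3.74 CPM at the highest. No library of either set reached the other's range, and the normal livers had 3.86, 2.45, 2.84 and 6.41 CPM. Its rise of 5.46 (SE 0.57) had an adjusted p of 0.000725 in the edgeR test.

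Notum, a secreted enzyme that removes the lipid from Wnt proteins, measured 71.1, 62.0 and 36.2 CPM in Grow 3, Grow 4 and Regress 4. The other tumours ran from 2.64 over a median of 5.11 to 8.20 CPM. Here the normal livers, with 11.4, 10.3, 19.6 and 16.0 CPM, lay between both sets of tumours without touching either. The difference between the tumours was 3.34 (SE 0.35, adjusted p = 0.000725). Notum was also the one feedback target that fell in the other tumours against normal liver, by 1.5 on the log2 scale (adjusted p = 0.0467). That comparison called 104 genes (0.799%), 30 of them lower (0.23%), but 0 with Normal 1, Normal 3, Normal 4, Grow 5 or Grow 6 left out.

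Lgr5, a receptor for R-spondins that marks pericentral hepatocytes and stem cells, measured 15.3, 17.7 and 11.1 CPM in Grow 3, Grow 4 and Regress 4. The other tumours had 0.198 to 2.17 CPM with a median of 0.768, and the normal livers 1.93, 0.874, 3.89 and 2.77 CPM. The highest normal liver lay under the lowest Glul-high tumour. The log2 fold change between the tumours was 3.97 (SE 0.56, adjusted p = 0.00535).

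Apcdd1, Sp5 and Tnfrsf19 were also higher in all 3 Glul-high libraries than in any other tumour, though by the filter Apcdd1 and Sp5 had to differ. Apcdd1, a membrane inhibitor of Wnt reception, had 10.7, 9.65 and 4.46 CPM in Grow 3, Grow 4 and Regress 4 and at most 0.512 CPM in the other tumours (log2 fold change 5.81, SE 0.84). Sp5, a zinc-finger repressor, had 27.6, 27.8 and 6.27 CPM against at most 1.38 CPM (5.12, SE 0.90). Tnfrsf19, a receptor of the TNF family, had 41.4, 42.3 and 30.5 CPM against 3.66 to 8.66 CPM, so its levels in the 3 libraries were close to each other (2.57, SE 0.34).

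Rnf43, a ubiquitin ligase that removes Frizzled receptors, had 60.3, 56.3 and 33.3 CPM against 4.61 to 16.6 CPM, and the highest normal liver had 26.0 CPM. Tcf7, a transcription factor that partners beta-catenin, had 14.9, 15.3 and 10.9 CPM against 1.60 to 4.39 CPM. Their rises were 2.30 and 2.10, with an adjusted p of 0.0389 for each, the weakest of the group, and they were called in 15 and 12 of 29 alternative settings. Of the members that did not pass, the repressor Tbx3 had 70.8, 68.3 and 24.8 CPM against 0.793 to 13.6 CPM (3.40, adjusted p = 0.0621), and Znrf3, a ligase related to Rnf43, had a log2 fold change of 1.57 (adjusted p = 0.436).

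The feedback targets Wif1, Lef1 and Dkk4 did not pass the filter on low counts and were not tested. Wif1, a secreted Wnt inhibitor, had 34.6 and 34.1 CPM in Grow 3 and Grow 4, but 1.25 CPM in Regress 4 and at most 0.512 CPM in the others. Lef1, a partner of beta-catenin, had 2.52, 2.47 and 1.11 CPM and at most 0.0732 CPM in the others. Dkk4 had no counts in the 3 Glul-high libraries. Bambi, Prr15 and Kcne3 overlapped between both sets.

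**Figure D2:**
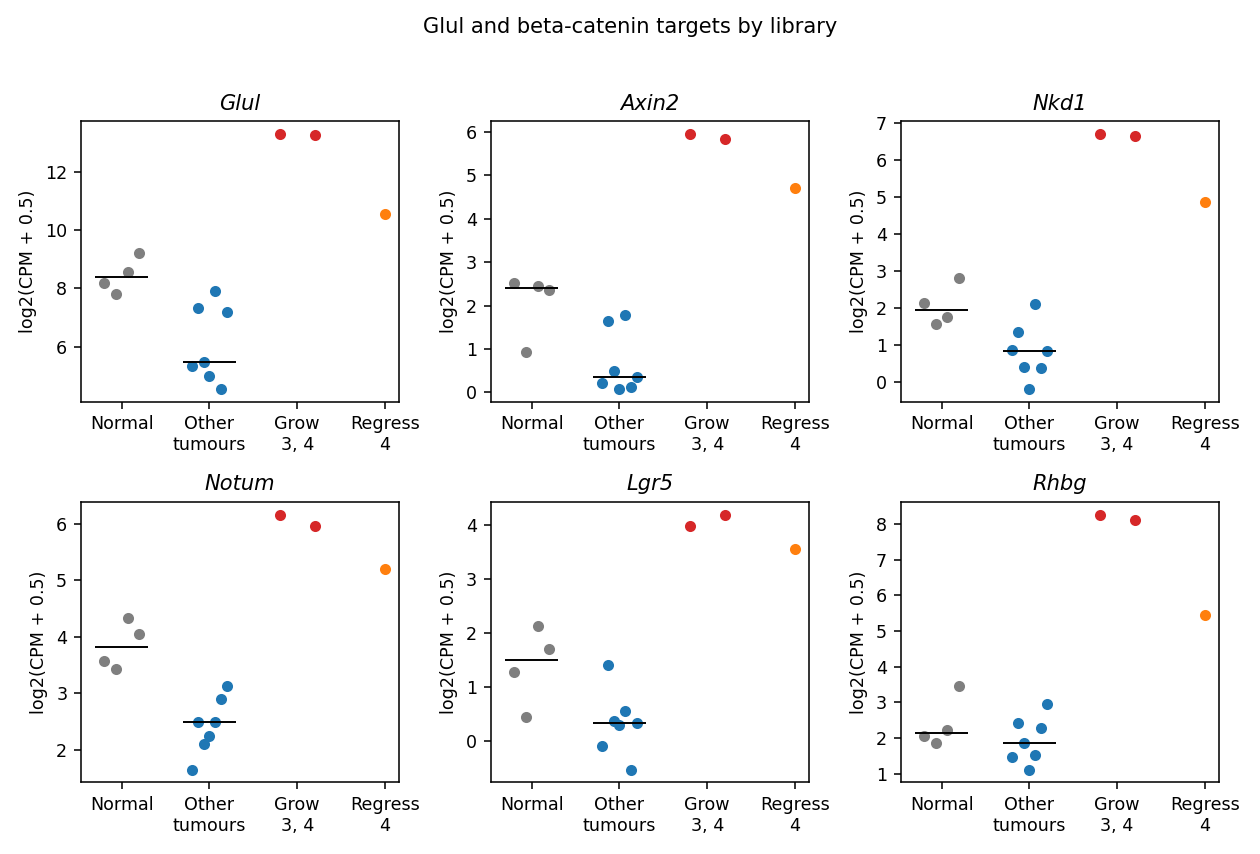
Log2(CPM + 0.5), TMM-adjusted, of Glul and 5 beta-catenin targets in each library, by normal liver (grey), other tumours (blue), Grow 3 and Grow 4 (red) and Regress 4 (orange), with bars at the medians of normal liver and other tumours. In all 6 panels Regress 4 lies between the near-copy pair and the remaining libraries.

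The same genes could be read within a treatment. With SAHA and TMZ in both, the mean of Grow 3 and Grow 4 was 22.5 times Grow 2 for Axin2, 50.1 times for Nkd1, 13 times for Notum and 7.59 times for Lgr5. With DMSO in all, Regress 4 was 32.7 times the mean of Grow 1 and Grow 5 for Axin2, 26.8 times for Nkd1, 11.3 times for Notum and 18.0 times for Lgr5. These ratios compare single samples and carry no test. With SAHA as a term in the model 20 genes were called between both sets, all higher, and with the Grow or Regress label as a term in the tumours alone 38 were called.

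Genes of glutamine and ammonium handling formed the next group, with 8 members tested and 3 higher (0.438% of all genes were). Rhbg, an ammonium transporter of pericentral hepatocytes, measured 307 CPM in Grow 3, 278 CPM in Grow 4 and 43.1 CPM in Regress 4. It had 1.66, 3.09 and 7.17 CPM at the lowest, median and highest in the other tumours, and 3.69, 3.15, 4.19 and 10.5 CPM in the normal livers. The Glul-high libraries thus stood above all other libraries, with a log2 fold change of 5.54 (SE 0.59, adjusted p = 0.000725) against the other tumours and 4.96 (adjusted p = 0.0123) against normal liver.

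Slc13a3, a carrier of dicarboxylates such as succinate, was the member in which Regress 4 matched the pair, with 83.9, 80.5 and 103 CPM in Grow 3, Grow 4 and Regress 4. The other tumours had 3.89 to 22.0 CPM with a median of 5.71, and the normal livers 27.2, 22.2, 30.0 and 9.48 CPM. Its rise was 3.37 (SE 0.53, adjusted p = 0.0117).

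Slc1a2, the glutamate transporter GLT-1, had 365 and 360 CPM in Grow 3 and Grow 4 and 30.1 CPM in Regress 4. The other tumours had 0.458 to 15.4 CPM. Regress 4 was above those but inside the range of the normal livers, 11.4 to 55.8 CPM. Its rise of 5.29 (SE 1.06) was close to the threshold, with an adjusted p of 0.0472, and was called in 11 of 29 alternative settings.

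Oat, ornithine aminotransferase, which links ornithine to glutamate in pericentral cells, split the Glul-high tumours. It had 2424 and 2442 CPM in Grow 3 and Grow 4 but 51.8 CPM in Regress 4, which is within the 8.27 to 209 CPM of the other tumours and under the 174 to 417 CPM of normal liver. The log2 fold change was 4.05 (adjusted p = 0.269). Without Regress 4 it was 4.99 (adjusted p = 0.0739), and without Grow 3 and Grow 4 it was -0.56. The neutral amino acid carrier Slc1a4 had 43.6, 42.3 and 106 CPM against 2.76 to 49.1 CPM in the other tumours, and Glud1, glutamate dehydrogenase, overlapped in all groups. Ldhd, a lactate dehydrogenase of the D form, had 379 and 349 CPM in the pair but 46.1 CPM in Regress 4, within the 23.6 to 125 CPM of the other tumours (1.87, adjusted p = 0.449). Slc38a3, a glutamine carrier, went the other way in the pair, with 225 and 215 CPM below the 512 to 1368 CPM of the other tumours, and 632 CPM in Regress 4 (-0.98, adjusted p = 0.984).

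Pericentral enzymes outside glutamine metabolism separated the pair from Regress 4. Of 30 such genes, all tested, only Gulo, the last enzyme of vitamin C synthesis, was called (0.438% of all genes were called higher). It had 1350, 1255 and 473 CPM in Grow 3, Grow 4 and Regress 4, 105 to 215 CPM in the other tumours and 103 to 378 CPM in normal liver (log2 fold change 2.49, SE 0.43, adjusted p = 0.0222). The near-copy pair lay above all 7 other tumours in 22 of the 30 genes (8.16% of all genes tested), Regress 4 in 5 of 30 (17.5% of all genes tested). The list median over both was 1.48. Of the 30 genes 2 were called higher with DESeq2 (0.808% of all genes) and 0 with limma-voom (0.553%).

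Cyp2e1, the ethanol-inducible cytochrome, gave the pattern in its plainest form. It had 8912 and 9122 CPM in Grow 3 and Grow 4, above all normal livers (2850 to 8416 CPM), and 1337 CPM in Regress 4. In the other tumours it ranged from 41.8 over a median of 271 to 1817 CPM, which includes Regress 4. The log2 fold change of 2.90 did not pass (adjusted p = 0.484).

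Cyp1a2, an arylamine-metabolising cytochrome, had 886, 869 and 224 CPM against 7.76 to 160 CPM in the other tumours and 230 to 761 CPM in normal liver (3.18, adjusted p = 0.162). The vasopressin receptor Avpr1a had 99.9, 98.4 and 51.8 CPM against 1.83 to 35.2 CPM (2.66, adjusted p = 0.176). Lect2, a secreted protein known as a beta-catenin target in liver, had 770, 768 and 119 CPM. In the other tumours Lect2 was at most 84.0 CPM except in Regress 1 with 213 CPM (3.02, adjusted p = 0.428). In both Cyp1a2 and Avpr1a all 3 libraries were above all other tumours, whereas for Lect2 Regress 4 was below Regress 1.

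Among the glutathione transferases, 2 of the mu class were called. Of 16 transferases tested, Gstm2 and Gstm3 rose (0.438% of all genes did). The mu-class genes Gstm1 (1.27, adjusted p = 0.546) and Gstm6 (1.59, adjusted p = 0.338) did not pass. Gstm2 had 616, 595 and 83.6 CPM in Grow 3, Grow 4 and Regress 4 against 13.3 to 55.5 CPM (3.64, SE 0.55, adjusted p = 0.00903). Gstm3 had 696, 673 and 102 CPM against 17.8 to 58.9 CPM (3.17, SE 0.49, adjusted p = 0.00937). In both genes Regress 4 lay within the range of the normal livers (73.2 to 114 and 71.3 to 125 CPM) and the pair far above it. Neither was called in the tumours alone or with SAHA as a term, and without the pair their log2 fold changes were 1.58 and 1.21. The mu-class genes are related in sequence, and whether estimated counts were split among them was not tested.

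**Figure D3:**
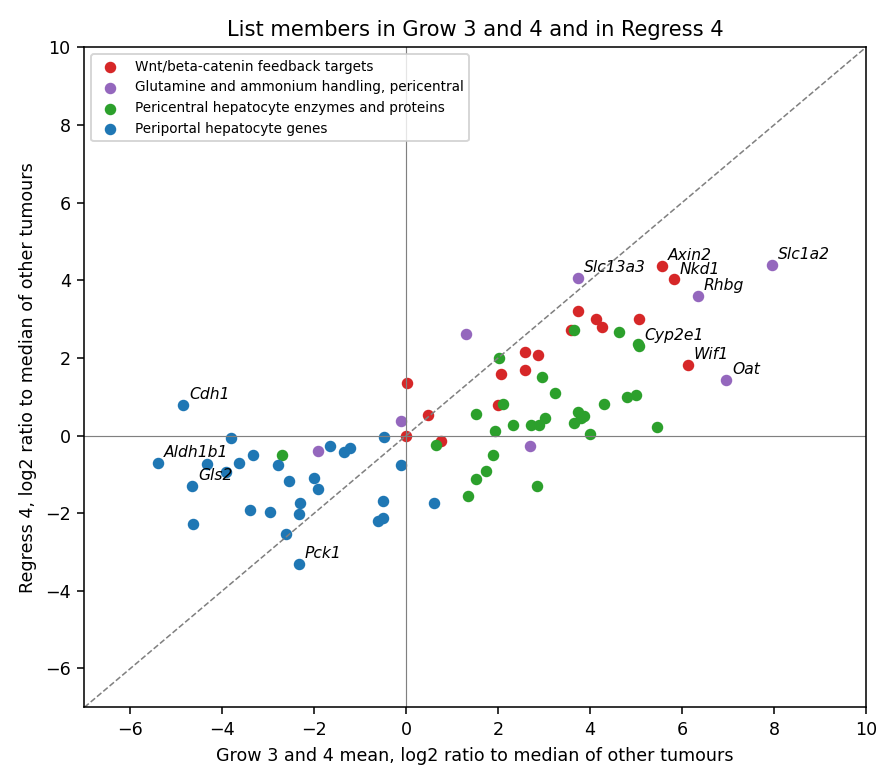
Log2 ratio of CPM (with 0.5 added) to the median of the 7 other tumours, for the mean of Grow 3 and Grow 4 (horizontal) and for Regress 4 (vertical), for members of 4 gene lists, with the line of equal ratios dashed. Most feedback targets (red) lie above 0 on both axes, most pericentral enzymes (green) lie below the line of equal ratios, and Oat is high in the pair with a small ratio in Regress 4.

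Most periportal genes lay on the other side, with no member called. None of 28 was lower at an adjusted p under 0.05 in edgeR, and 18 were at an unadjusted one (2.23% of all genes were). In 13 of the 28 genes all 3 Glul-high libraries lay below all other tumours (1.75% of all genes did), and the list median was -1.69. With limma-voom 6 were lower (0.0614% of all genes) and with DESeq2 10 were (0.485%). The pair lay below all other tumours in 21 of the 28 (6.85% of all genes) and Regress 4 in 16 (16.1%). Members of high level did not all share this. Apoa4 had 1271, 1219 and 5082 CPM in Grow 3, Grow 4 and Regress 4, within the 369 to 31049 CPM of the other tumours (-1.79, adjusted p = 0.994). For Vtn the values were 1107, 1045 and 1448 CPM against 1119 to 1985 CPM (-0.23, adjusted p = 0.994). Gls2, Cps1 and Hal below were named after their values were seen.

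Gls2, the liver glutaminase that opposes glutamine synthetase, had 10.5 and 10.4 CPM in Grow 3 and Grow 4 and 111 CPM in Regress 4. The other tumours had 174, 274 and 354 CPM at the lowest, median and highest, and the normal livers 330, 202, 276 and 362 CPM. All 3 were thus below every other library, the pair by far more than Regress 4. The log2 fold change was -2.20 (adjusted p = 0.367). In the fit without Regress 4, which called 22 genes lower (0.161%), Gls2 fell by 4.76 (adjusted p = 0.00309), and the spread of the pair, then a lone sample, was taken from the other groups.

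Cps1, the entry enzyme of the urea cycle, had 55.8 and 50.3 CPM in the pair and 650 CPM in Regress 4, against 735 to 1784 CPM in the other tumours and 1514 to 3939 CPM in normal liver. Without Regress 4 its difference was -4.52 (adjusted p = 0.0314). Hal, which degrades histidine, had 15.5, 14.6 and 122 CPM against 156 to 331 CPM, and without Regress 4 differed by -3.97 (adjusted p = 0.00621). With all libraries neither passed (Cps1 -1.77, adjusted p = 0.778, and Hal -1.77, adjusted p = 0.506).

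In other periportal genes Regress 4 lay nearer to the pair. Mfsd2a, a lysophospholipid carrier, had 1.14, 1.18 and 1.25 CPM in Grow 3, Grow 4 and Regress 4 and 4.73 to 24.8 CPM in the other tumours (-3.29, adjusted p = 0.0621). Pck1, a key enzyme of glucose synthesis, had 116, 109 and 57.5 CPM against 247 to 849 CPM (-2.68, adjusted p = 0.153). Arginase, Arg1, had 135, 142 and 276 CPM against 704 to 3307 CPM (-3.01, adjusted p = 0.135).

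The Glul-high tumours were also compared with normal liver, where 106 genes were called (0.814%), 93 higher (0.714%) and 13 lower (0.0998%). No Glul-high tumour had the buffer injection of the normal livers, so tumour and injection cannot be told apart in this comparison. Of the feedback targets 4 rose there, namely Apcdd1, Nkd1, Axin2 and Tcf7, and of the glutamine genes 2, Rhbg and Slc1a4. Slc1a4 differed from normal liver by 4.65 (adjusted p = 0.0348) in the Glul-high tumours. In the other tumours it also lay higher, by 2.73 (adjusted p = 0.0751, not called), and between both sets of tumours it was not called. Apcdd1 passed the filter on low counts only through the Glul-high libraries, so it had to differ. Among the lower genes were 4 periportal ones. Mfsd2a differed by -4.95 (adjusted p = 0.0153), Pck1 by -4.02 (adjusted p = 0.0294), Sds, which breaks down serine, by -3.98 (adjusted p = 0.0296), and Ass1 of the urea cycle by -2.99 (adjusted p = 0.0461). The other 7 tumours had 0 of 28 periportal genes called lower against the same normal livers (0.23% of all genes were). In them Mfsd2a differed by -1.65 (adjusted p = 0.0625), Pck1 by -1.34, Sds by -1.35 and Ass1 by -0.83, none of them called. Both comparisons share those livers, and the difference between them is the test of both sets of tumours given above. The calls against normal liver depended on single libraries, with 6 genes left when Normal 1 was omitted.

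**Figure D4:**
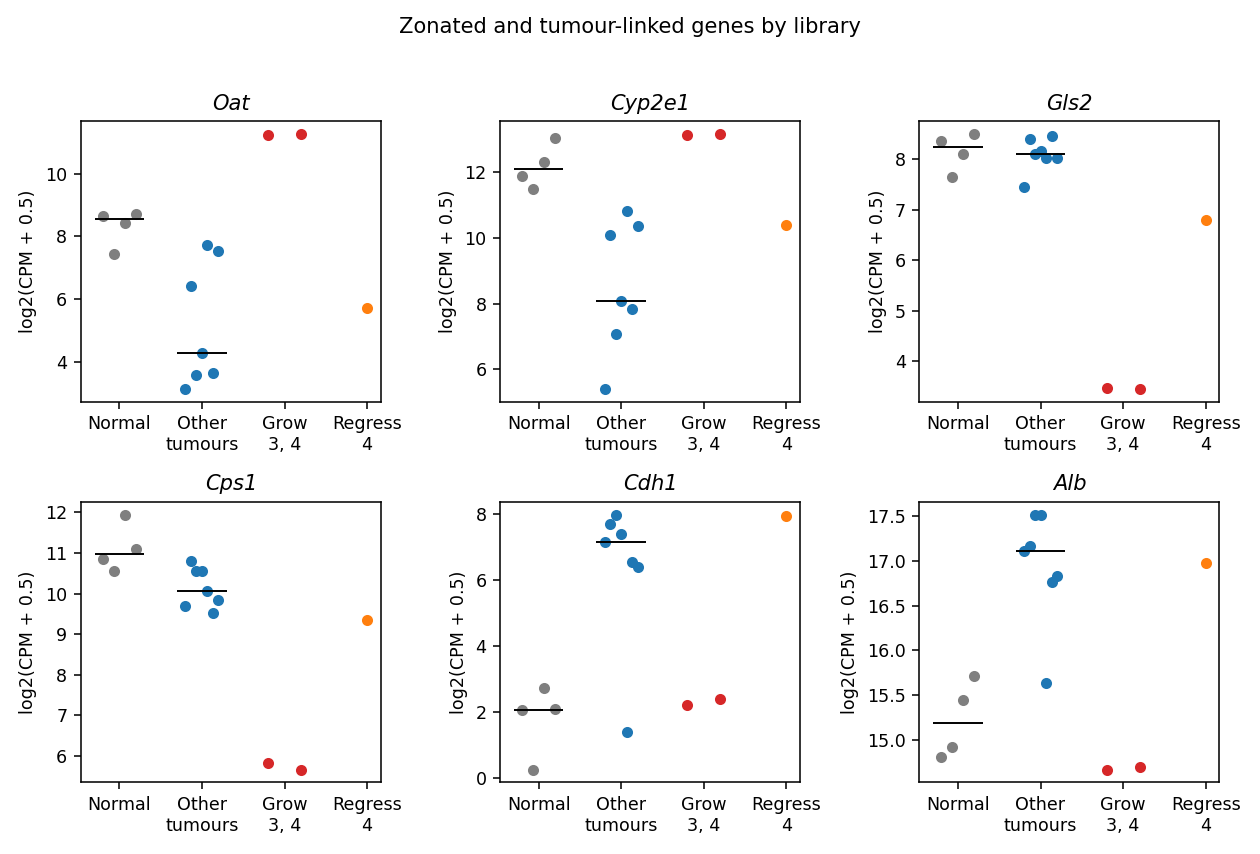
Log2(CPM + 0.5), TMM-adjusted, of pericentral Oat and Cyp2e1, periportal Gls2 and Cps1, and Cdh1 and Alb in each library, coloured as in the plot of beta-catenin targets, with bars at the medians of normal liver and other tumours. Regress 4 lies with the other tumours for Oat, Cyp2e1, Cdh1 and Alb, and the pair lies apart from them for Oat, Cyp2e1, Gls2, Cps1 and Alb.

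Both genes called lower were present in every other library. Ctnnbip1 encodes ICAT, which keeps beta-catenin from TCF factors. It had 4.67, 4.83 and 8.64 CPM in Grow 3, Grow 4 and Regress 4, 14.9 to 25.2 CPM in the other tumours, and 18.8, 14.2, 14.5 and 17.5 CPM in normal liver. All 3 Glul-high libraries were below all others (-1.62, SE 0.32, adjusted p = 0.0399). Dach2, a transcriptional cofactor, had 0.126, 0.118 and 0.557 CPM against 1.68 to 4.81 CPM (-3.38, SE 0.66, adjusted p = 0.0411). Each fall was close to the threshold and kept in few settings: 9 of 29 alternatives for Ctnnbip1 and 10 of 29 for Dach2.

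Of 31 tested components of the pathway, Ctnnbip1 was the only one called (0.0154% of all genes were called lower, 0.438% higher), and the list median was 0.20. Regress 4 lay above all other tumours in 13 of the 31 (17.5% of all genes) and the pair below all of them in 6 (6.85%). Ctnnb1, which encodes beta-catenin, had 181, 184 and 373 CPM in Grow 3, Grow 4 and Regress 4 and 126 to 342 CPM in the other tumours (0.29, adjusted p = 0.994). The pair lay within that range and Regress 4 above it.

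The largest rises outside the lists included long noncoding RNAs of the imprinted Dlk1-Dio3 region. Rian had 407 and 422 CPM in Grow 3 and Grow 4, 47.9 CPM in Regress 4, at most 4.17 CPM in the other tumours and at most 6.27 CPM in normal liver (7.61, SE 1.14, adjusted p = 0.00901). Meg3 of the same region had 253, 234 and 20.2 CPM against at most 2.27 CPM (7.43, SE 1.20, adjusted p = 0.0134). Rian and Meg3 passed the filter on low counts only through the Glul-high libraries, so they had to differ. Mirg, looked up after these, had 8.71, 8.36 and 0.557 CPM and at most 0.0732 CPM in the other tumours, and did not pass the filter. Dlk1, a protein-coding gene of the region, did not share this order, with 0, 0.235 and 3.62 CPM.

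Pnliprp1, a lipase-related protein, was an exception in that Regress 4 was highest, with 18.8, 18.0 and 77.2 CPM against at most 0.952 CPM in the other tumours (7.55, SE 0.99). The adhesion receptor Adgrg2 was high mainly in the pair, with 40.3, 45.6 and 1.95 CPM against at most 0.198 CPM in the other tumours. Other genes among the largest rises were Sbspon, the organic cation carrier Slc22a3, the neuronal pentraxin Nptx1 and carboxypeptidase E (Cpe), with log2 fold changes of 7.02, 6.77, 6.26 and 5.59. Sbspon and Slc22a3 were high mainly in the pair. Sbspon had 18.3, 18.0 and 1.67 CPM, and Slc22a3 had 50.6, 57.3 and 1.67 CPM, below the 2.48 CPM of Normal 4 in Regress 4. Nptx1 had 25.2, 31.1 and 5.29 CPM and Cpe 36.7, 38.3 and 15.5 CPM. Like Pnliprp1 and Adgrg2, Sbspon, Slc22a3, Nptx1 and Cpe passed the filter only through the Glul-high libraries and had to differ.

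Some called genes were chosen for naming after their values were seen. Atp10a, a lipid flippase, had nearly the same level in the 3 Glul-high libraries, 16.4, 19.9 and 19.6 CPM, with at most 0.805 CPM in all other tumours and normal livers (5.47, SE 0.52). It passed the filter on low counts only through the Glul-high libraries, as did Hao2, Sfrp2 and Ccn4 below and Rian, Meg3, Pnliprp1, Adgrg2, Sbspon, Slc22a3, Nptx1 and Cpe above, so these had to differ. Plat, tissue plasminogen activator, had 73.3, 74.9 and 60.9 CPM, at most 4.39 CPM in the other tumours and at most 0.598 CPM in normal liver (5.10, SE 0.67, adjusted p = 0.00363). Hao2, a hydroxyacid oxidase, had 57.4, 51.4 and 8.50 CPM against at most 3.69 CPM (4.38, SE 0.66).

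Sfrp2, a secreted Frizzled-related protein, had 6.44, 8.59 and 11.8 CPM against at most 0.768 CPM (6.11, SE 0.93). Ccn4, a matricellular Wnt target, had 7.20, 6.83 and 7.38 CPM against at most 1.39 CPM (3.22, SE 0.61), and it was called in 14 of 29 alternative settings. In both, as in Atp10a and Plat, the pair and Regress 4 were close to each other. Carbonic anhydrase 2, Car2, had 37.1, 38.1 and 17.4 CPM against 1.97 to 6.87 CPM (2.30, SE 0.41, adjusted p = 0.0295).

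Lists of other tumour programmes gave no call between both sets in edgeR. None of the 14 MAPK/ERK output genes, 17 oncofetal markers, 30 proliferation genes or 18 hepatocyte identity genes tested was called in edgeR, DESeq2 or limma-voom, and 0, 1, 0 and 2 had an unadjusted p under 0.05 in edgeR (5.75% of all genes did). Their medians were 0.21, 0.17, 0.59 and -0.42 with the pair and Regress 4 together. With the pair alone they were -0.82, -1.75, 0.25 and -0.77, and with Regress 4 alone 0.49, 0.78, 0.75 and -0.06. Regress 4 lay above all other tumours in 5, 6, 15 and 0 of these genes (17.5% of all genes) and below them in 0, 0, 1 and 4 (16.1%). The pair lay above them in 0, 1, 0 and 0 (8.16%) and below them in 2, 2, 0 and 6 (6.85%). The 14 CAR and PXR targets, 13 sex-biased genes, 17 bile acid genes and 17 genes of glucose and lipid metabolism also had 0 calls in edgeR, with 1, 1, 0 and 2 at an unadjusted p under 0.05. In these lists limma-voom called 0, and DESeq2 called 1 gene of glucose and lipid metabolism lower (0.485% of all genes were). The summed level of 15 MAPK/ERK output genes was 219 to 221 CPM in the pair, 370 CPM in Regress 4 and 120 to 338 CPM in the other tumours. The ERK phosphatase Dusp6 had 93.0, 99.1 and 122 CPM, within the 37.4 to 132 CPM of the other tumours. Spry1, named after its values were seen, had 1.26 and 0.824 CPM in the pair and 18.0 CPM in Regress 4. The pair thus lay below the 2.36 to 14.1 CPM of the other tumours for Spry1, and Regress 4 above it. Cyclin D1 (Ccnd1), a G1 cyclin often listed as a beta-catenin target, had 37.9, 33.4 and 45.4 CPM and 11.4 to 52.4 CPM in the others. Dusp6 and Ccnd1 stood above the normal livers in all tumours, with at most 22.3 CPM for Dusp6 and 5.54 CPM for Ccnd1 there.

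For some genes of the lists the pair and Regress 4 lay far apart. The adhesion protein E-cadherin (Cdh1), on the periportal list, had 4.17 and 4.83 CPM in Grow 3 and Grow 4 but 248 CPM in Regress 4, with 84.5 to 254 CPM in the other tumours apart from Regress 1 (2.17 CPM) and 0.699 to 6.13 CPM in normal liver. Glypican-3 (Gpc3), an oncofetal surface protein, had 10.7, 11.1 and 292 CPM, against 0.197 to 292 CPM in the other tumours. For Gpc3 the pair thus lay within the range of the other tumours, and Regress 4 was level with the highest of them. Albumin (Alb) had 26019 and 26436 CPM in the pair, below all other tumours, and 129431 CPM in Regress 4, within their 50713 to 187766 CPM. For Cdh1 and Alb Regress 4 lay within the range of the other tumours, and the pair resembled normal liver for Cdh1.

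Regress 4 also held more RNA of stroma. The summed level of 13 markers of stellate cells and fibroblasts was 1300.1 CPM in Regress 4, 114 to 119 CPM in the pair, 143 to 365 CPM in the other tumours and 228 to 379 CPM in normal liver. Collagen Col1a2, the one called gene of the list, had 199 CPM in Regress 4 but 6.94 and 7.53 CPM in the pair, within the 1.58 to 12.3 CPM of the others. Its log2 fold change was 3.76 (SE 0.71, adjusted p = 0.0389) with Regress 4 and -0.07 without it.

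Markers of recruited monocytes and macrophages (11 genes) summed to 773 CPM in Regress 4, 505 to 521 CPM in the pair and 150 to 851 CPM in the other tumours. For Kupffer cells (12 genes) the sums were 394, 428 to 440 and 112 to 982 CPM, and for endothelium (12 genes) 186, 112 to 113 and 177 to 296 CPM. Cholangiocyte markers (9 genes) summed to 523 CPM in Regress 4, 39.7 to 41.7 CPM in the pair and 36.8 to 624 CPM in the others. T and NK cell markers (13 genes, Klrb1c without counts in any library) stayed at 28.2 CPM or less and B and plasma cell markers (6 genes) at 58.1 CPM or less in every library. The part of these cells in the results was not tested. In these bulk samples fewer cells of a type and less RNA per cell cannot be told apart.

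The comparison was repeated with the pair alone and with Regress 4 alone on the Glul-high side. Without Regress 4 the comparison called 77 genes higher (0.565%) and 22 lower (0.161%). Without Grow 3 and Grow 4 it called 42 higher (0.305%) and 0 lower, with 870 genes at an unadjusted p under 0.05. Of the feedback targets 8 of the same 14 were called in the first and 3, namely Axin2, Nkd1 and Notum, in the second. For these 3 the log2 fold changes were 5.48, 6.08 and 3.69 in the pair and 4.29, 4.25 and 2.82 in Regress 4. Each of these fits rests on 1 Glul-high sample, with its spread taken from the other groups, and both share the same 7 other tumours.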

How the data were processed

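RNA libraries from snap-frozen tissue (TruSeq v2 kit of Illumina, as the labels' protocols state) were sequenced for 14 samples. The authors deposited estimated counts per transcript, and Salmon 0.3.1, edgeR 3.14.0 and build mm9 appear in the submitters' processing notes. The sources used here do not name the transcript annotation. The 35230 deposited rows were summed per mouse gene symbol through RefSeq (GRCm38.p6, 26081 rows) and GENCODE M21 (144 rows). The 9005 unmatched rows, 3.52% to 12.1% of a library, stayed as features of their own, which gave 30436. One column without values was not used. Sums were rounded to whole counts.

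The kit does not mark strand, so a gene and its antisense partner cannot be told apart. Glul CPM by column total set the sides, and the replicate numbers came from the titles. Grow 3 and Grow 4 were summed into 1 library. Genes were tested by quasi-likelihood in edgeR 4.0.16 (limma 3.58.1, R 4.3.3) with TMM and filterByExpr, with 3 groups (Normal, Glul-high, other tumours) fitted together. DESeq2 1.42.0, limma-voom, other size factors, filters, covariates and left-out libraries were alternatives. Each SE is the size of the log2 fold change over the root of its F statistic. The code was tested on simulated counts. The biological coefficient of variation was 0.517.

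The members and the 21 gene lists (347 genes) were chosen with earlier results of these data known. Genes named were Glul, Axin2, Lgr5 and Rhbg, all feedback and glutamine-handling members, up to 4 called (or 3 highest) members of other lists, and the 10 largest rises and 10 falls with non-overlapping values and a mean log2 CPM of at least 1. Falls were taken by lowest p, since fewer than 5 were called. Others were chosen after their values were seen. Some genes that the rule names are not reported here.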

Additional observations from a re-analysis of the deposited data

Results flagged for a closer look

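Of 52 groups of values, from 26 genes, 9 held 1 library far from the others by Dixon's criterion at 95%, which by chance marks about 1 group in 20. Among normal livers these were Axin2 in Normal 2, low at 1.40 CPM, Gstm2 in Normal 2, high at 114 CPM, Rhbg in Normal 4, high at 10.5 CPM, Meg3 in Normal 4, high at 7.44 CPM, and Atp10a in Normal 1, high at 0.702 CPM. Among the other tumours they were Lgr5 in Grow 2, high at 2.17 CPM, Apcdd1 in Regress 3, high at 0.512 CPM, Rian in Grow 1, high at 4.17 CPM, and Lect2 in Regress 1, high at 213 CPM. Each of these values except that of Lect2 in Regress 1 and of Gstm2 in Normal 2 lay under all 3 Glul-high libraries.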

How the results depend on the processing

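The 59 genes called between both sets of tumours became 127 with Grow 3 and Grow 4 kept as 2 libraries, 168 with DESeq2 (105 higher and 63 lower), 31 in the tumours alone, 38 with the Grow or Regress label as a term, 20 with SAHA as a term and 28 without Normal 4 and Regress 2. Leaving out single libraries gave 32 (without Grow 5, or without Grow 6) to 99 (without Regress 4), and without both Grow 3 and Grow 4 42 were called, 14 of them among the 59. The 106 genes called between Glul-high tumours and normal liver became 451, 780 (DESeq2), 65 (limma-voom), 387 (length trend removed) and 7 (without Normal 4 and Regress 2), in the same order of settings beginning with the 2 libraries, and 6 to 438 with single libraries left out. The 104 between other tumours and normal liver became 243, 935, 48, 473 and 0, then 0 to 818 with single libraries left out (0 without Normal 1, 3 or 4, Grow 5 or Grow 6, 818 without Regress 1) and 258 without Grow 3 and Grow 4. The 9 feedback targets became 3 without Grow 3 and Grow 4 and 6 to 10 with single libraries left out.

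With the replicate number as a block, and Grow 3 and Grow 4 as 2 libraries, 0 genes were called in each of the 3 comparisons by edgeR (455, 1119 and 945 at an unadjusted p under 0.05), and 0 feedback targets. Deviations of same-numbered libraries from their group means correlated from -0.496 to 0.244. With few libraries in a group, this cannot tell whether same-numbered samples share an animal or a batch. Normal 4 and Regress 2, which share a sample code, have different numbers and were not in that check. The fold changes of Col1a2 (-0.074 to 3.91 with single libraries left out) and Ctnnb1 (-0.33 to 0.42) reversed without Regress 4, and that of Oat without Grow 3 and Grow 4 (-0.56). The causes were not tested. Axin2, Nkd1, Notum, Rhbg, Slc13a3 and Plat were called in 28 of 29 alternatives, all but the block, and 2 of the 29 moved no tumour and repeat the reported result. Having 2 Glul-high samples limits what can be called.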
